A study of Bos taurus with 30 samples.

Results

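The miRNAs miR-221 (bta-miR-221) and miR-222 (bta-miR-222) were examined in 30 Holstein-Friesian bull calves, in the pituitary's anterior lobe, which secretes most of its hormones. They were chosen by name and are 2 of the 1030 mature bovine miRNAs in the deposited table. No other row carried either name with an arm suffix. All calves were males of the same breed, fed differently from 2 weeks of age and sampled at 12 weeks of age, with 1 small RNA library per calf. The 15 HI calves were given 1.5 kg of milk replacer (10 litres) per day and concentrates without restriction, whereas the daily allowance of the 15 MOD calves was 0.5 kg (4 litres) of replacer with 0.5 kg of concentrates. The tissue was a mixture of cell types, in which fewer cells of a type and less of a miRNA per cell cannot be told apart. With no other tissue to compare, the pituitary label was not tested, only set beside miR-375 and miR-7, which are abundant in endocrine cells. Their summed level was 119220 to 212047 CPM (read counts per 1e6 reads, TMM-normalized by the authors) in HI calves and 134487 to 209427 CPM in MOD calves, and neither was at 0 in any library.

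The genes of miR-221 and miR-222 lie next to each other on the X chromosome, and their transcripts are processed into miRNAs that share a seed, the short stretch with which a miRNA pairs to its targets. The pair is best known for repressing CDKN1B and CDKN1C, inhibitors of the kinases that drive cells through division, and for high levels in many tumours. CDKN1B restrains growth of the pituitary, since mice without it develop pituitary overgrowth. The pair also targets the receptor KIT and acts in the vessel wall, where it favours division of smooth muscle cells. In RefSeq's gene table for the ARS-UCD2.0 assembly, MIR222 and MIR221 are consecutive entries on chromosome X with 0 annotated genes between them, and the entry on either side is a long non-coding RNA.

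Both miRNAs were detected in every library. Reads placed on miRNAs ranged from 6650492 to 11086524 per library, of which 6183 to 18183 were miR-221 and 2092 to 6388 were miR-222. The recovered read numbers of both were whole in all 30 libraries. They thus gave no sign of reads divided with another miRNA in the counting, although whole totals cannot exclude it. Averaged over calves, miR-221 was at 1195 ± 247 CPM and miR-222 at 411 ± 103 CPM (SD, n = 30). The pooled reads of miR-221 made up 0.120% of all miRNA reads and those of miR-222 made up 0.0415%. This placed them 67 and 110 in order of mean CPM among the 419 miRNAs that passed the filter on low counts. A read covers a whole mature miRNA, so the levels were not divided by length, and differences between the miRNAs in how well the library kit captures them were not tested.

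The first comparison asked whether the plane of nutrition changed the level of either miRNA. In HI calves miR-221 ranged from 949 CPM to 1872 CPM with a median of 1179 CPM. In MOD calves it ranged from 776 CPM to 1586 CPM with a median of 1193 CPM. The diets overlapped over most of their ranges, with 2 HI calves above the highest MOD calf and 3 MOD calves below the lowest HI calf. The mean was 1248 ± 271 CPM for HI and 1142 ± 216 CPM for MOD (SD over 15 calves each). Taken as HI minus MOD of log2(CPM + 1), the difference was 0.12 (standard error 0.10, 95% interval -0.08 to 0.33), with FDR = 0.722 from limma and Benjamini-Hochberg adjustment. As a fold, the interval ran from 0.945 to 1.26, so it held no change as large as the 1.5-fold threshold of the study.

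In HI calves miR-222 ranged from 292 CPM to 649 CPM with a median of 364 CPM. In MOD calves it ranged from 284 CPM to 590 CPM with a median of 417 CPM. The highest MOD calf was exceeded by 3 HI calves, and 1 MOD calf was lower than every HI calf. The mean was 424 ± 121 CPM for HI and 398 ± 82.8 CPM for MOD (SD over 15 calves each). Its log2 difference was 0.07 (standard error 0.12, 95% interval -0.17 to 0.31), with FDR = 0.920 from limma, and the fold interval of 0.888 to 1.24 again lay within 1.5-fold. Neither miRNA therefore passed FDR < 0.1. In the same fit 15 of the 419 miRNAs did, a background of 3.58%, of which 2 also passed the study's 1.5-fold threshold. Calls throughout rest on FDR alone. The median log2 difference of all 419 was 0.02.

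For both miRNAs the mean and the median gave opposite orders of the diets. The mean was higher in HI calves, whereas only 7 of the 15 HI values exceeded the MOD median for miR-221 and 4 of the 15 for miR-222. The same 5 calves, HI 5, HI 8, HI 11, HI 15 and MOD 15, held the 5 highest values of each miRNA. In HI 5, the highest in both, miR-221 was at 1872 CPM and miR-222 at 649 CPM. Without HI 5 the log2 differences between diets were 0.08 for miR-221 and 0.02 for miR-222, the lowest values when each calf was left out in turn. Without MOD 15 they were 0.16 and 0.11, the highest.

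**Figure D1:**
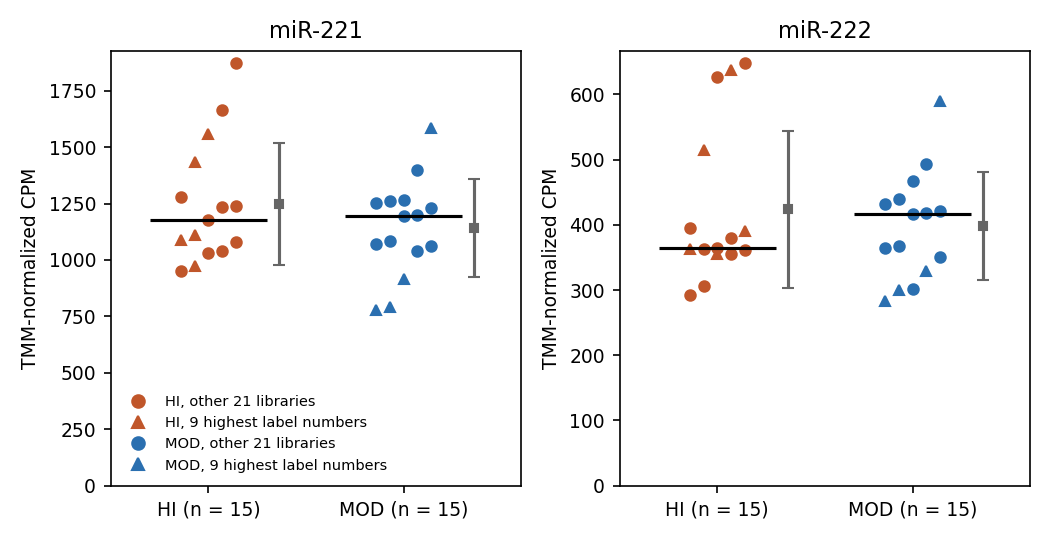
Levels of miR-221 and miR-222 in TMM-normalized CPM (y axes, from 0) in the 15 HI and 15 MOD calves. Each symbol is 1 calf, the black bar is the median and the grey square with its bar is the mean with the SD; for miR-222 the HI median of 364 CPM lay below the MOD median of 417 CPM while 3 HI calves lay above the highest MOD calf.

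Levels of many miRNAs also differed between the libraries with the highest numbers in the calf's label and the rest. The 9 calves with the highest numbers (5 HI and 4 MOD) were therefore set against the other 21 (10 HI and 11 MOD), a boundary that had been placed from another miRNA of these data. Of the 419 miRNAs, 109 passed FDR < 0.1 between the sets in limma with diet in the model. This background of 26% is counted at a boundary taken from these same libraries. Neither miR-221 nor miR-222 was among them. In the 9 libraries miR-221 ranged from 776 CPM to 1586 CPM (median 1089 CPM), and in the other 21 from 949 CPM to 1872 CPM (median 1198 CPM). The log2 difference, 9 minus 21, was -0.14 (standard error 0.11, FDR = 0.377 from limma). The 3 lowest values of miR-221 belonged to MOD calves of the 9, at 776 CPM, 792 CPM and 917 CPM. For miR-222 the ranges were 284 CPM to 637 CPM (median 362 CPM) in the 9 and 292 CPM to 649 CPM (median 380 CPM) in the 21. Its log2 difference was 0.00 (standard error 0.13, FDR = 0.982 from limma).

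Within the sets no diet difference passed p = 0.05 in a permutation test, which does not show that the diets were alike. The 9 libraries hold only 5 HI and 4 MOD calves. In the 21 libraries the log2 difference, HI minus MOD, was 0.06 for miR-221 (exact permutation test, two-sided p = 0.596) and -0.03 for miR-222 (exact permutation test, p = 0.840). There the HI calves were the more widely spread. Their miR-221 ran from 949 CPM to 1872 CPM, against 1039 CPM to 1399 CPM in MOD calves, and the difference in spread was not tested. In the 9 libraries the log2 difference was 0.32 for miR-221 (exact permutation test, p = 0.254) and 0.30 for miR-222 (exact permutation test, p = 0.286). The change of the diet difference from one set to the other was 0.26 on the log2 scale for miR-221 (FDR = 0.851 from limma) and 0.32 for miR-222 (FDR = 0.841), with 0 of 419 miRNAs at FDR < 0.1 in limma and 21 at an unadjusted p under 0.05.

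Because the miRNAs share a seed, their levels were also added in each calf. The sum ranged from 1256 CPM to 2521 CPM in HI calves (median 1559 CPM) and from 1076 CPM to 2176 CPM in MOD calves (median 1560 CPM). The medians were nearly the same and the ranges overlapped. The log2 difference of 0.11 was within the spread between calves (two-sided permutation test, p = 0.306), and so were those of 0.04 in the 21 libraries (exact permutation test, p = 0.747) and 0.31 in the 9 (exact permutation test, p = 0.254).

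The second question was how closely the neighbouring genes' products followed each other from calf to calf. Across the 30 calves log2 miR-221 and log2 miR-222 rose and fell together, with Pearson's r = 0.889 (permutation p = 1e-05, the smallest that these permutations can give) and Spearman's rho = 0.873 (permutation p = 1e-05). Both values of a calf come from 1 library and share its scaling factor. Scaled by total counts instead, r was 0.905. The relation held in the 15 HI calves (r = 0.902, permutation p = 5e-05) and in the 15 MOD calves (r = 0.890, permutation p = 2e-05). It held in the 21 libraries (r = 0.903, permutation p = 1e-05) and in the other 9 (r = 0.928, exact permutation p = 0.000876). Without HI 5 and MOD 7, the calves farthest from the median of miR-221, r was 0.891 (permutation p = 1e-05).

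**Figure D2:**
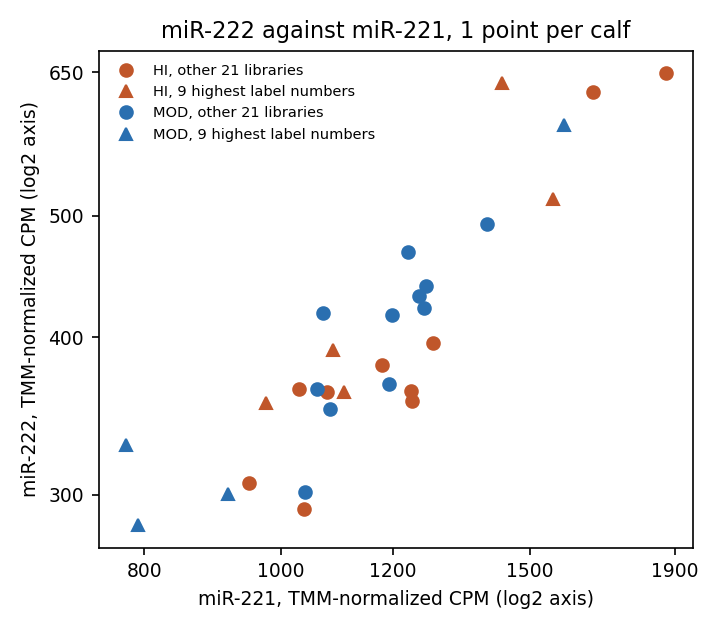
Level of miR-222 (y axis) against miR-221 (x axis), both in TMM-normalized CPM on log2 axes, with 1 point per calf, colour for diet and shape for label set. The points of both diets and both sets lie along 1 band (r = 0.889, n = 30), with HI 5 at its upper end.

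Among the 418 other miRNAs tested, miR-222 had the highest Pearson's r with miR-221 over the 30 calves, and miR-221 the highest with miR-222. The next 4 for miR-221 were miR-22-5p (r = 0.711), miR-326 (r = 0.648), miR-491 (r = 0.637) and miR-1388-3p (r = 0.616). The next 4 for miR-222 were miR-149-5p (r = 0.634), miR-1388-3p (r = 0.626), miR-22-5p (r = 0.623) and miR-6119-5p (r = 0.608). Thus miR-22-5p and miR-1388-3p were among the 5 most alike for both. These are descriptions of likeness over the same 30 libraries, which all share their scaling. The r of miR-326 with miR-221 was 0.946 in the 9 libraries and 0.450 in the 21. For miR-22-5p it was 0.822 and 0.681.

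The same quantity was computed for 8 other pairs of miRNAs that are known to be processed from neighbouring hairpins. Their r over the 30 calves ran from -0.08 for miR-23a with miR-27a-3p to 0.863 for miR-17-5p with miR-20a, each below the 0.889 of miR-221 with miR-222. In the 9 libraries the r of miR-424-5p with miR-503-5p, 0.933, was above that of miR-221 with miR-222. These pairs differ in depth, and the differences between their r were not tested.

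In each library miR-221 was the more abundant of the pair. In HI calves miR-221 reads were 2.25 to 3.55 times those of miR-222 (median 3.02), and in MOD calves 2.36 to 3.45 times (median 2.88). The ratio is free of the scaling of libraries, since both miRNAs are read from the same one. The mean log2 ratio of miR-222 to miR-221 was -1.58 ± 0.17 for HI and -1.52 ± 0.14 for MOD (SD over 15 calves each). The difference, HI minus MOD, was -0.06 and within the spread between calves (two-sided permutation test, p = 0.323). It was -0.08 in the 21 libraries (exact permutation test, p = 0.155) and -0.02 in the other 9 (exact permutation test, p = 0.873).

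The ratio varied from calf to calf. Its SD over the 30 calves was 0.15 on the log2 scale, where counting error alone would give 0.0289 at these depths. The rest is spread between calves and between library preparations, which 1 library per calf cannot tell apart. The reads of miR-222 were 30.8% of those on the pair in HI 11 (95% Wilson interval 30.2 to 31.4%) and 29.8% in MOD 7 (28.9 to 30.6%), the highest shares. The lowest share was 22.0% in HI 10 (21.1 to 22.8%). These intervals cover counting error only, as reads without molecular identifiers are not independent molecules. Among the 8 other pairs the SD of the log2 ratio ran from 0.14, for miR-17-5p with miR-20a, to 0.37, for miR-144 with miR-451.

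The share of miR-222 was higher in the libraries with the highest label numbers. It was 26.8 ± 2.18% in the 9 and 24.9 ± 1.72% in the other 21 (SD), and the ranges of 24.6 to 30.8% and 22.0 to 28.1% overlapped. The log2 ratio was higher by 0.14 in the 9 (two-sided permutation test, p = 0.0215), a comparison made after the values were seen. It was higher by 0.17 within HI calves (exact permutation test, p = 0.0686) and by 0.11 within MOD calves (exact permutation test, p = 0.167). Without HI 11 the pooled p was 0.0667, and without MOD 7 it was 0.0630 (permutation tests), so that the comparison passed 0.05 only with both calves.

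**Figure D3:**
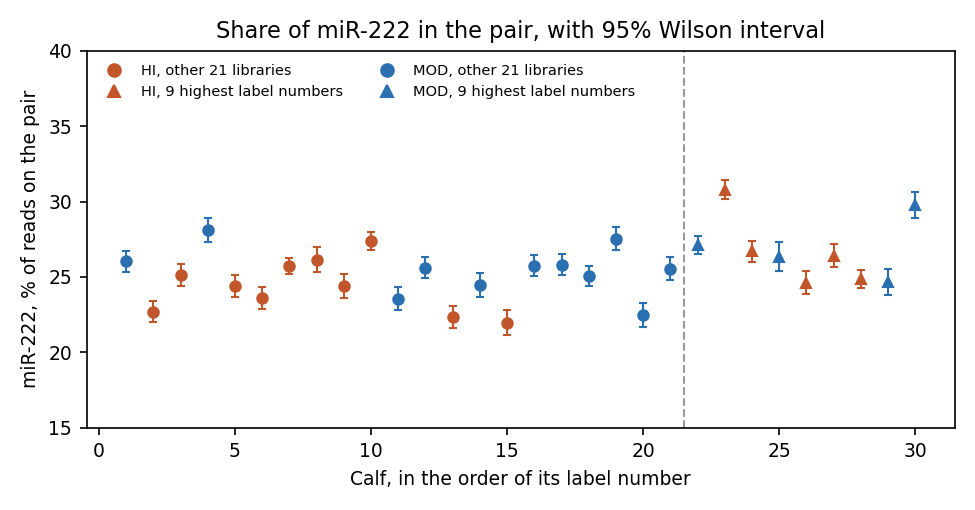
Reads of miR-222 as a percent of the reads on miR-221 and miR-222 together (y axis, which starts at 15%), with 95% Wilson intervals, for the 30 calves in the order of their label numbers (x axis). The dashed line marks the start of the 9 highest numbers; HI 11 (30.8%) and MOD 7 (29.8%), both among the 9, have the highest shares.

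To place the pair among miRNAs known for acting on cell division, 41 were listed as growth promoting (16, miR-221 and miR-222 included) or growth restraining (25). Of the 41, 39 passed the filter on low counts. Both that did not were low in every library, miR-20b at no more than 1.35 CPM and miR-34b at no more than 3.58 CPM. Of the 15 growth-promoting miRNAs tested, 0 passed FDR < 0.1 in limma and 1 had an unadjusted p under 0.05. That was miR-92a of the miR-17/92 cluster, with 5407 ± 608 CPM for HI and 5918 ± 551 CPM for MOD (SD over 15 calves each) and a log2 difference of -0.13 (FDR = 0.269 from limma). The most abundant growth-promoting miRNA was miR-21-5p, which is raised in many tumours, with 6759 ± 655 CPM for HI and 6605 ± 445.7 CPM for MOD (SD over 15 calves each). Its log2 difference was 0.03 (FDR = 0.906 from limma). The median log2 difference of the growth-promoting miRNAs was 0.03, against 0.02 over all 419.

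Of the 24 growth-restraining miRNAs tested, 5 passed FDR < 0.1 in limma, 3 higher and 2 lower in HI calves, which is 20.8% beside the background of 3.58%. None of the 5 reached a 1.5-fold change. The list cannot serve as support for a direction or for an excess over the background, since earlier results of these calves were known when it was written. Nor are the 5 independent, as miR-195 and miR-497 come from neighbouring hairpins (r = 0.605 over the 30 calves). Higher in HI calves were miR-34a, a target of p53 (log2 difference 0.49, FDR = 0.0256), and miR-195 and miR-497 of the miR-15/16 family, which target cyclins (0.41 with FDR = 0.0177 and 0.37 with FDR = 0.0256). Lower were miR-26a and miR-26b, which target cyclins and EZH2 (-0.29 with FDR = 0.0613 and -0.13 with FDR = 0.0396). The 2 decreases depended on the processing. With upper quartile scaling miR-26a had FDR = 0.131 and miR-26b FDR = 0.220, while the 3 increases passed under each alternative and without each calf. With total counts miR-26b had FDR = 0.428. The call of miR-26a was also lost with edgeR on the recovered reads (FDR = 0.111) and without a filter on low counts (FDR = 0.131). With calves blocked by the digits that follow the leading digit of the label number, it was lost too (FDR = 0.140). The same held with miR-486 as a covariate (log2 difference -0.18, FDR = 0.393). Without HI 8, MOD 5 or MOD 12 the FDR of miR-26a was 0.107, 0.107 and 0.101 (limma). Reads of miR-26a, the most abundant of the list with 54232 ± 11218 CPM for HI and 65414 ± 8569 CPM for MOD (SD over 15 calves each), were in part divided with another miRNA in 18 of the 30 libraries. The median log2 difference of the 24 was 0.00.

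**Figure D4:**
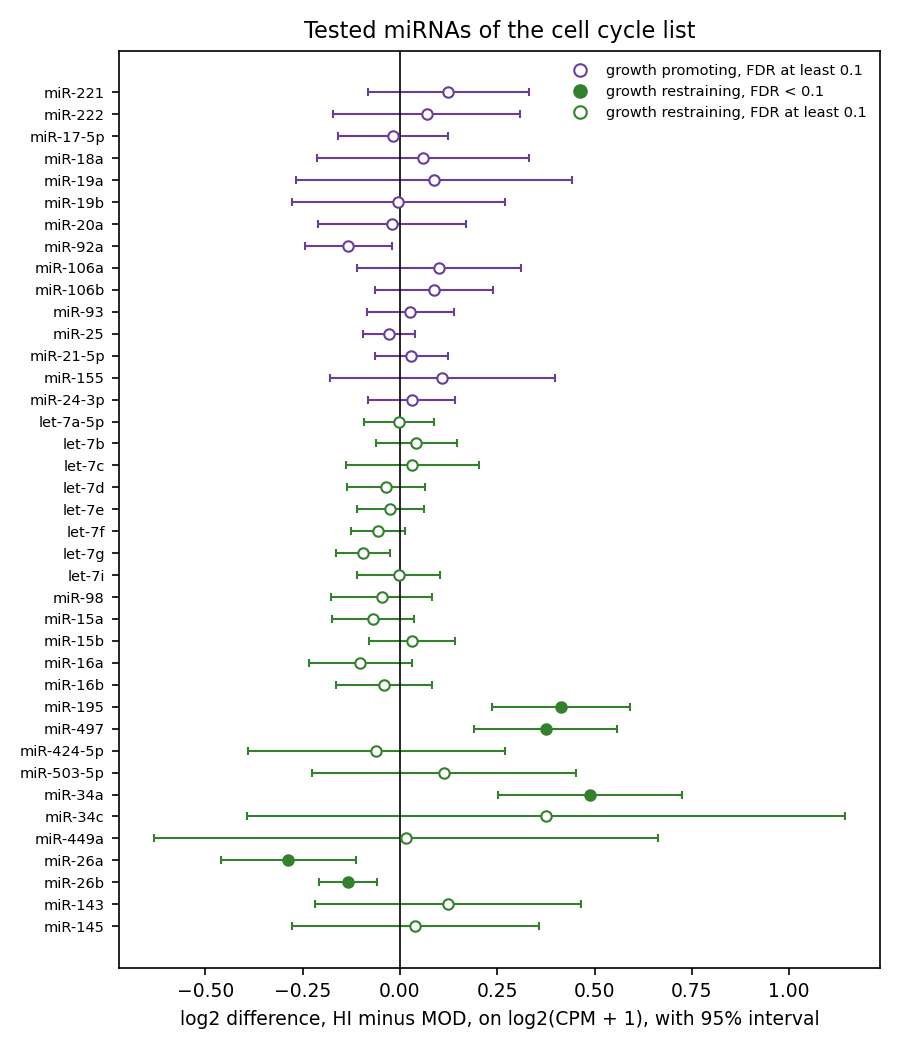
Log2 difference between diets (x axis, HI minus MOD on log2(CPM + 1), with the 95% interval from limma) for the 39 tested miRNAs of the cell cycle list; filled points passed FDR < 0.1. The intervals of miR-221 (-0.08 to 0.33) and miR-222 (-0.17 to 0.31) span 0, and the 5 filled points are all growth-restraining miRNAs.

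Of 9 miRNAs abundant in blood cells, 2 moved with the levels of the pair, miR-486 and miR-146b. How many of the 418 other miRNAs would pass the same tests was not counted. Nothing particular to blood cells can therefore be read from the 2. Over the 30 calves, both were compared with the summed level of 9 marker lists and with each red and white blood cell miRNA, 36 relations in all. Chosen after the data were seen, these are given with p-values adjusted over the 36. The clearest of the 36 was with miR-486, which is abundant in red blood cells and in muscle. It ranged from 10396 CPM to 24338 CPM in HI calves (median 17259 CPM) and from 15438 CPM to 27356 CPM in MOD calves (median 20481 CPM), so that the diets overlapped. Its own log2 difference, HI minus MOD, was -0.27 (standard error 0.11, unadjusted p = 0.0235 and FDR = 0.274 from limma). Calves with more miR-486 had less of both, with r = -0.58 and rho = -0.50 for miR-221 (adjusted permutation p = 0.00945 and 0.0261) and r = -0.63 and rho = -0.53 for miR-222 (adjusted permutation p = 0.00486 and 0.0261). The r for miR-221 was -0.56 in the 21 libraries, -0.79 in the 9 and -0.44 without the 2 calves farthest from the median of miR-486. For miR-222 these were -0.61, -0.69 and -0.53. Among all 418 others, miR-486 had the lowest r with miR-222. With miR-221 it stood 416 in order, above miR-99a-5p (r = -0.61) and miR-125b (r = -0.64).

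The relations of the other red blood cell miRNAs with the pair did not pass. For miR-451, r was 0.34 with miR-221 and 0.19 with miR-222 (adjusted permutation p = 0.202 and 0.503), and for miR-144 it was 0.42 and 0.26 (adjusted permutation p = 0.0867 and 0.313). The summed level of the 3 was 10578 to 24489 CPM in HI and 15557 to 27422 CPM in MOD calves, nearly all of it miR-486, and none was at 0 in any library. By diet the log2 differences of miR-451 and miR-144 were 0.55 and 0.46 (unadjusted p = 0.0118 and 0.00523, FDR = 0.190 and 0.115 from limma). That of miR-486 was -0.27. With miR-486 as a covariate the log2 difference between diets changed sign, to -0.01 for miR-221 (FDR = 0.992 from limma) and -0.11 for miR-222 (FDR = 0.777). The part of red blood cells in the levels of the pair was not tested.

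Of the white blood cell miRNAs 1 of 6 moved with the pair. This was miR-146b, an inhibitor of inflammatory signalling, at 299 to 1952 CPM in HI calves (median 697 CPM) and 244 to 3090 CPM in MOD calves (median 645 CPM). Its r was 0.520 with miR-221 (rho = 0.545, adjusted permutation p = 0.0177 and 0.0261) and 0.521 with miR-222 (rho = 0.498, adjusted permutation p = 0.0177 and 0.0261). It was 0.542 and 0.534 in the 21 libraries, 0.694 and 0.538 in the 9, and 0.457 and 0.478 without the 2 calves farthest from the median of miR-146b. In order of r among all 418 others, miR-146b stood 12 for miR-222. For miR-221 its r lay below the 0.552 of the miRNA at place 12. The other 5 white blood cell miRNAs, among them the leukocyte miRNAs miR-142-5p, miR-142-3p, miR-223 and miR-150, had r from -0.07 to 0.31 with the pair, the lowest adjusted permutation p being 0.258. The summed level of the 6 was 906 to 2656 CPM in HI and 752 to 3919 CPM in MOD calves, and its r of 0.485 with miR-221 and 0.516 with miR-222 (rho = 0.510 and 0.537, adjusted permutation p of r = 0.0278 and 0.0180) includes miR-146b. Their part in the levels of the pair was not tested.

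**Figure D5:**
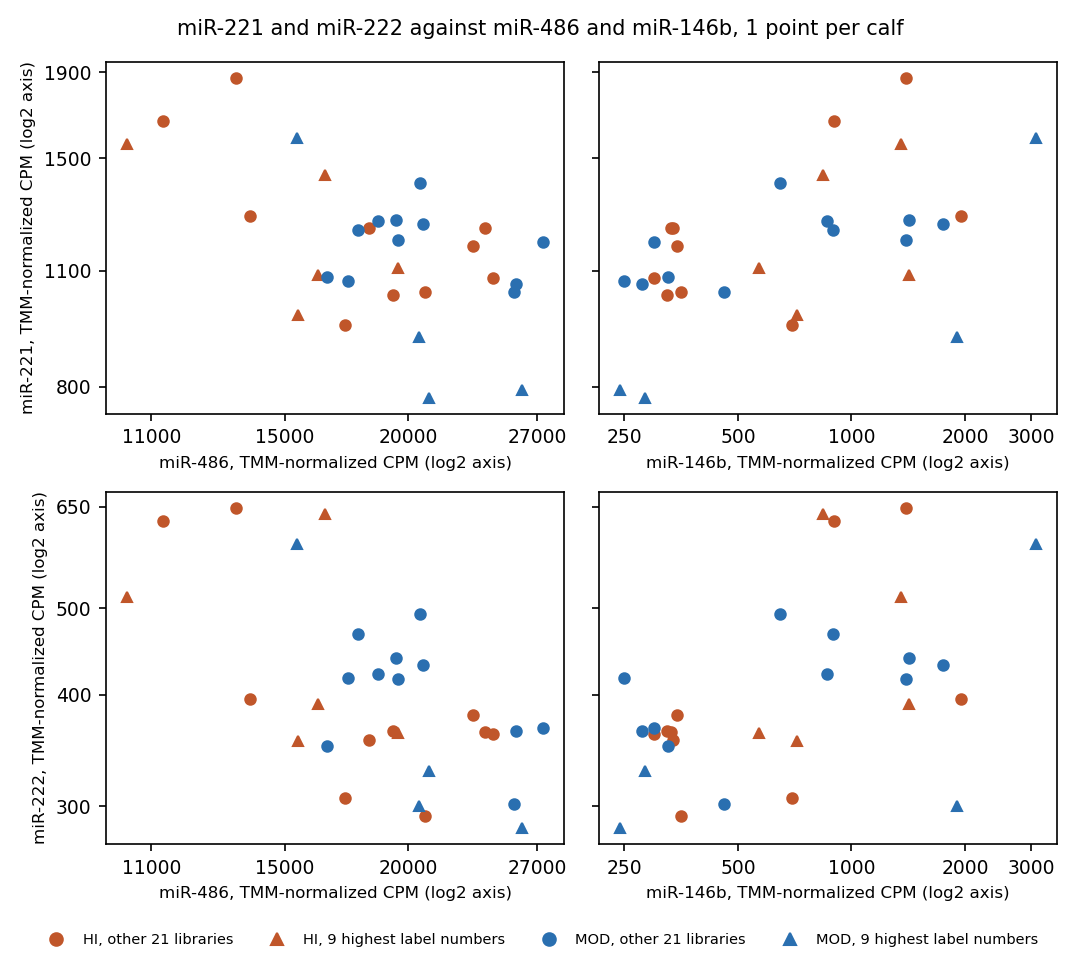
Levels of miR-221 (upper row) and miR-222 (lower row) against miR-486 (left) and miR-146b (right), all in TMM-normalized CPM on log2 axes, with 1 point per calf, colour for diet and shape for label set. Both fall as miR-486 rises (r = -0.58 and -0.63) and rise with miR-146b (r = 0.520 and 0.521).

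The remaining 7 lists (endothelial, smooth muscle and pericyte, fibroblast, endocrine, epithelial, neural and striated muscle) had r from -0.38 to 0.12 with the pair. None of these 14 relations passed an adjusted permutation p of 0.05 by r or by rho. For the vessel wall, in which the pair is known to act, r with the endothelial list (both arms of miR-126) was -0.36 for miR-221 and -0.26 for miR-222, and with the smooth muscle list (miR-143 and miR-145) it was -0.12 and -0.24. By rho these were -0.42 and -0.31, and -0.37 and -0.39 (lowest adjusted permutation p = 0.0792). Without the 2 calves farthest from each list's median, r was -0.26 and -0.22 for the endothelial list and -0.35 and -0.29 for the smooth muscle list.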

How the data were processed

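Small RNA of the anterior pituitary of 30 calves was sequenced, with 1 library per calf. After adapter trimming (Cutadapt), the authors retained reads of 15 to 28 bases that did not match other classes of bovine short RNA, and quantified known miRNAs with miRDeep2 on ARS-UCD1.2. What they deposited is a normalized signal, namely edgeR's CPM scaled by TMM factors. The value of 1 read was found in each library from the spacing of its lowest values, and at least 93.7% of the low values of a library were whole multiples to within 0.02 of a read. A count of 3 reads was worth 0.266 to 0.419 CPM. HI and MOD were compared with limma 3.58.1 (eBayes with trend) on log2(CPM + 1). Recovered reads served to filter low miRNAs with filterByExpr, which left 419, with Benjamini-Hochberg adjustment over all of them. Calls used the study's FDR < 0.1 without its added fold change threshold of 1.5. Alternatives were edgeR 4.0.16 and DESeq2 1.42.0 on rounded recovered reads, other scalings, filters, pseudocounts and covariates, and fits without each calf. Single values and correlations were compared with two-sided permutation tests (100000 resamples, or exact for correlations over 9 calves and for differences within a diet or within a label set). The labels give no replicate number, so calves were numbered within each diet. The miRNAs to name were set by rule as the pair, the 5 miRNAs most alike to each, the listed miRNAs that passed FDR < 0.1 and the most abundant in each role, the marker lists and 8 neighbouring pairs. Outside that rule, miR-92a, miR-20b, miR-34b, miR-99a-5p and miR-125b were named after their values were seen. The pair, the lists and the label set boundary were chosen with earlier results of these data known. The comparison of the diets in limma, edgeR and DESeq2 was tried on simulated data. So were the resampled permutation tests of a difference and of Pearson's r.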

Additional observations from a re-analysis of the deposited data

How the results depend on the processing

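The study blocked its calves on age, bodyweight, sire and farm when it assigned the diets. The labels name no block, so no HI calf could be linked to a MOD calf and no paired analysis was made. The diet differences of miR-221 and miR-222 missed FDR < 0.1 under each of 10 alternatives and in each of 30 fits without 1 calf, which ran from 0.08 to 0.16 for miR-221 and from 0.02 to 0.11 for miR-222. They were 0.19 and 0.13 on total counts. Label numbers also fall into ranges by the digits that follow the leading digit. Each range held calves of both diets and both label sets. With these ranges as a block the diet differences were 0.076 and 0.029. Their sign turned with miR-486 as a covariate, to -0.0061 and -0.11, and the cause was not tested. Without 1 calf the difference of the sum ran from 0.07 to 0.15, that of the ratio from -0.09 to -0.04, and r from 0.866 to 0.908. The label set difference of miR-222 was -0.072 with the label number range added, -0.10 with the boundary 1 calf later, and -0.078 to 0.067 without 1 calf, and that of miR-221, for the same 3, was -0.25 (FDR = 0.121), -0.24 (FDR = 0.118) and -0.22 to -0.08; none passed FDR < 0.1 in limma. The 15 miRNAs past FDR < 0.1 by diet were 24 with DESeq2 and 14 to 21 without 1 calf. They split into 8 higher and 7 lower in HI calves, against 16 and 2 on total counts and 8 and 2 with upper quartile scaling. The 5 of the cell cycle list were 3 with upper quartile scaling, and 4 to 5 without 1 calf. By label set, 85 to 116 passed without 1 calf. With 2092 reads or more of either miRNA in each library, counting error is small beside the spread between calves.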
